A study of Danaus plexippus with 32 samples.

Results

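In the monarch butterfly (Danaus plexippus) brain, 35 genes were more abundant in male than in female libraries across genotypes and times of day without lying on the 2 scaffolds, DPSCF300001 and DPSCF300012, on which a male excess is spread over many genes. A scaffold is an assembled stretch of genome that has not been placed on a chromosome in the files. The genes were chosen by the male minus female difference itself. Each of the 15130 genes has an abundance in FPKM, a read number scaled to transcript length and to the mapped reads of the library, and 10412 genes reached 3 FPKM in some wild-type library. Of these, 10034 lay off the 2 scaffolds. For each library the values were put on a log2(FPKM + 1) scale and centred on the median of these 10034 genes, and the female library of a genotype and time was subtracted from the male one, giving 16 differences per gene. A gene was kept if at least 14 of the 16 were above 0 and their mean was at least 0.4. The sign condition alone passed 243 genes (2.42%), the size condition alone 123 genes (1.23%), and both together 35 genes (0.349%). The same rule with the sign turned round passed 42 genes.

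The libraries were made from polyA+ RNA of pools of 3 adult brains dissected free of eye photoreceptors, from butterflies entrained for at least 7 days at 25 °C to days with 15 h light and 9 h dark. Time is given as Zeitgeber time (ZT), in hours after lights on. Cry2 KO and Clk KO butterflies, mutants of the clock genes Cry2 and Clk, were sampled at ZT4, ZT10, ZT16 and ZT22, and wild-type (WT) butterflies every 3 h, starting at ZT1 and ending at ZT22. Each genotype and time had 1 male pool, which is replicate 1, and 1 female pool, which is replicate 2. Sex and the replicate series therefore cannot be told apart in these libraries, and every male minus female value below is also a value of series 1 minus series 2.

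In butterflies the female is the heterogametic sex: males carry a pair of Z chromosomes, females a Z and a W, and genes on the Z can differ between the sexes where dosage is not fully balanced. Sex-biased expression in insect brains also occurs on autosomes, through regulators that act differently in males and females. Monarch CRY2 is a repressor of the circadian clock and CLK is an activator that works in a complex with BMAL1. None of the 35 genes has a name in the sources used here: 0 of them are among the 431 genes of the study's table of rhythmic genes, and 0 are named in its text. They are therefore given by their identifiers, without roles.

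Reads on genes, taken from the width of the deposited 95% intervals, ranged from 2848069 to 4456322 per library, and 13 of the 16 groups had fewer reads in the male than in the female library (male per female reads of 0.727 to 1.15). Cry2 itself (DPOGS208079) had 22.1 to 23.9 FPKM in the 8 Cry2 KO libraries, 19.5 to 25.2 FPKM in the 8 Clk KO libraries and 18.5 to 34.6 FPKM in the 16 WT libraries, so that the 3 ranges overlapped. Markers of neurons (5 genes, summed FPKM of 69.3 to 111 in male and 85.5 to 111 in female libraries) and of glia (3 genes, 333 to 681 in male and 406 to 619 in female libraries) were present throughout. So were the genes listed for the eye (Pdh, ninaB, santa-maria and sev, 108 to 177 in male and 110 to 165 in female libraries). The same held for those listed for the cuticle (2 genes, 203 to 481 in male and 212 to 468 in female libraries). No marker of these lists had a median of 0 in either sex. The lists were drawn by name from the study's table of rhythmic genes. Whether each gene is restricted to its tissue in the monarch was not tested, so no tissue is read as present from them. In pooled tissue, a difference in the number of cells of a type and a difference in RNA per cell cannot be told apart.

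Among the 32 libraries, 2 stood apart, by their spread or against their label, in ways that touch these genes. The first is the WT ZT22 female library, whose genes deviated from the WT median with an interquartile range of 0.843 (log2 units), against at most 0.248 in the other 31 libraries within their own genotypes. The second is the library labelled Cry2 KO ZT22 female. Over all 15130 genes, 4 were listed at 0 in every WT female library and above 0 in every WT male library. These 4 genes had 15 reads together in the library labelled Cry2 KO ZT22 female, 0 reads in the other 15 female libraries together, and 18 to 42 reads in each male library. The values of 0 in WT females and above 0 in WT males were fixed by that choice, which the knockout libraries did not enter. Among the knockout libraries, the one labelled Cry2 KO ZT22 female thus went against its label on these genes, in part. Why it did was not tested. Without the WT ZT22 group the members' means moved by -0.11 (DPOGS201068, to 0.39) to 0.10 (DPOGS213758), and without the Cry2 KO ZT22 group by -0.02 (DPOGS201068) to 0.15 (DPOGS212555, to 2.93). The medians used for centring also differed, from 3.79 in a Clk KO male library to 4.25. Centring thereby raised the differences at Clk KO ZT4. There DPOGS201880 had 8.61 FPKM in the male and 8.64 FPKM in the female, and a centred difference of 0.30.

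DPOGS212555, on scaffold DPSCF300075 (assembly v3, start 514515, end 516817 as the files write them), had the largest mean difference, 2.77 ± 0.70 (SD, n = 16 groups). Its FPKM were 5.05, 5.24, 6.76 and 5.37 in Cry2 KO males at ZT4, ZT10, ZT16 and ZT22, against 0, 0, 0 and 3.49 in Cry2 KO females. In Clk KO males it had 4.69, 7.52, 6.72 and 4.80 FPKM, and it was listed at 0 in the 4 Clk KO females. The 8 WT males lay between 4.48 and 14 FPKM with a median of 6.71, and the 8 WT females were listed at 0. Male and female libraries thus did not overlap in any genotype, and the closest approach was at Cry2 KO ZT22, where the female library held 65.1% of the male value. The values rest on few reads, 126 in the 16 male and 5 in the 16 female libraries.

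DPOGS203943, on DPSCF300005 (68288 to 69431), followed with a mean difference of 1.71 ± 0.49. It had 2.24, 3.61, 2.62 and 3.23 FPKM in Cry2 KO males, against 0, 0, 0 and 0.901 in Cry2 KO females. In Clk KO males it had 2.27, 3.30, 2.70 and 2.48 FPKM and was listed at 0 in the 4 Clk KO females. WT males ranged from 0.232 at ZT16 to 3.58 at ZT13 with a median of 2.13, and WT females were listed at 0. The ZT16 value was the only WT male value under 1 FPKM, and the groups again did not overlap, with 185 reads in male and 5 in female libraries.

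DPOGS200098, on DPSCF300044 (132301 to 134215), had a mean difference of 1.23 ± 0.49. Its FPKM were 0.736, 2.67, 1.72 and 2.73 in Cry2 KO males, against 0, 0, 0 and 0.712 in Cry2 KO females. In Clk KO males they were 1.20, 0.766, 0 and 0.699, and the 4 Clk KO females were listed at 0. WT males had 0.913 to 3.03 FPKM with a median of 1.81, and WT females were listed at 0. Both libraries of Clk KO ZT16 were thus at 0, and the difference of 0.03 in that group came from the centring alone. At a median of 0.50 reads over the 32 libraries, this is the member with the fewest reads, and its values cannot be ranked among themselves.

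**Figure D1:**
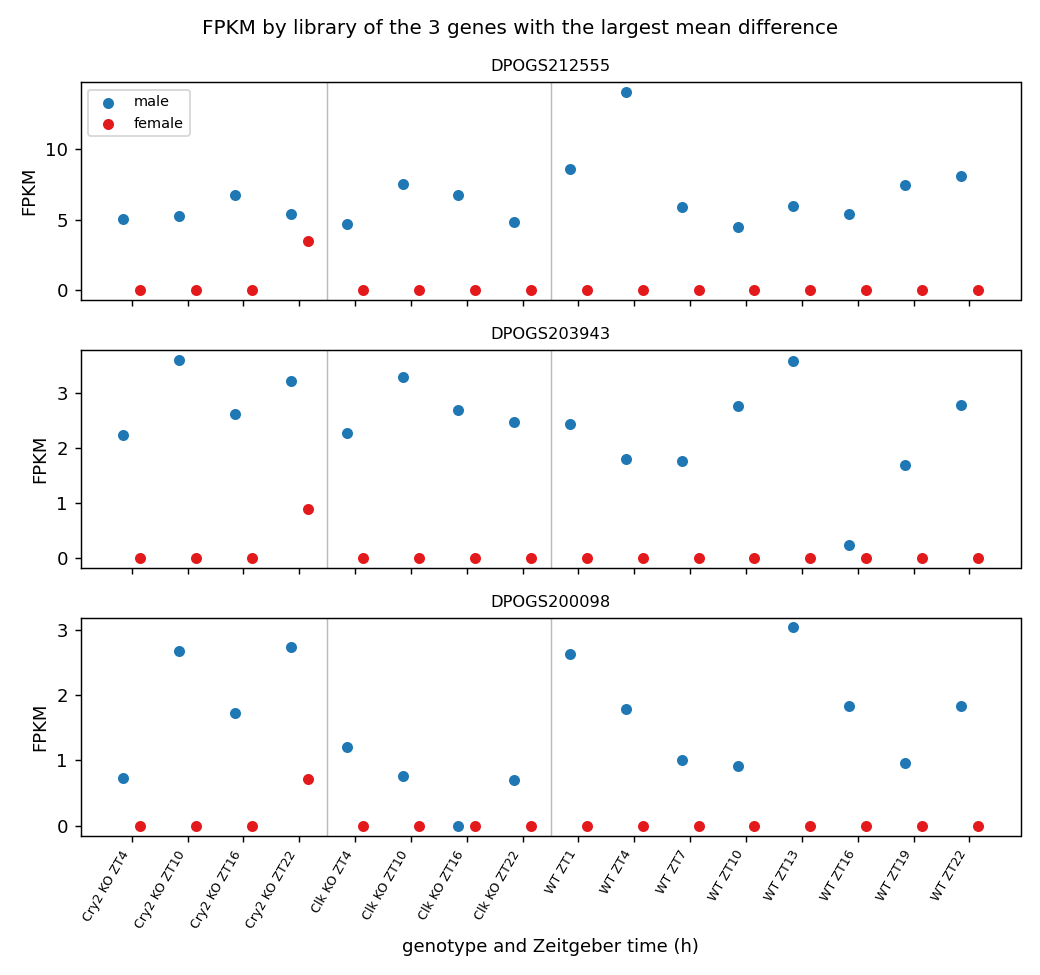
FPKM of DPOGS212555, DPOGS203943 and DPOGS200098 (vertical axes) in each of the 32 libraries, by genotype and Zeitgeber time (horizontal axis), with male libraries in blue and female libraries in red. In each panel 15 of 16 female points lie at 0, and the exception is the library labelled Cry2 KO ZT22 female.

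All 3 of these genes were above 0 in the library labelled Cry2 KO ZT22 female and in no other female library. The other gene of the 4, DPOGS203388 on DPSCF300003, is not a member because its highest WT value was 2.56 FPKM. It had 1.54 FPKM in the Cry2 KO ZT22 male, against 0.481 FPKM in the female. The female-to-male percentages at Cry2 KO ZT22 were 65.1% for DPOGS212555, 31.2% for DPOGS203388, 27.9% for DPOGS203943 and 26% for DPOGS200098, from 5, 4, 5 and 1 reads in the female library.

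Another 4 of the 10 members with the largest means were highly variable or rested on few reads. DPOGS209089 (mean 1.02 ± 1.20) was listed at 0 in the females of Cry2 KO ZT16 and WT ZT7, was above 0 in 15 groups, and reached 32.2 FPKM in males and 24.1 FPKM in females from a median of 2.50 reads. DPOGS208279 (0.87 ± 1.13) and DPOGS213758 (0.79 ± 1.79), above 0 in 14 groups each, were listed at 0 in libraries of both sexes, with medians of 2.50 and 1.99 reads. For DPOGS213758 the groups above 0 included Cry2 KO ZT22, where both libraries were at 0. They also included Clk KO ZT10, with 3.15 FPKM in the male and 3.19 FPKM in the female. Both differences came from the centring alone, and its place among the members rests on them. DPOGS211342 (0.89 ± 1.27) spanned 17.1 to 670 FPKM in males and 7.12 to 280 FPKM in females, and its differences ran from -2.0 at WT ZT10 to 3.65 at Clk KO ZT10. In these 4 genes the SD over groups exceeded the mean.

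The remaining 3 of the first 10 were better resolved. DPOGS203315 on DPSCF300003 (mean 0.83 ± 0.36) had 11, 15.1, 17.5 and 14.3 FPKM in Cry2 KO males, against 7.12, 5.47, 6.75 and 9.93 FPKM in Cry2 KO females. It had 13.4, 9.53, 11.9 and 12.5 FPKM in Clk KO males, against 6.31, 4.83, 6.82 and 7.58 FPKM in Clk KO females. WT males had 11.7 to 16.5 FPKM with a median of 14.2, against 5.87 to 14.2 FPKM in WT females with a median of 8.24. The sexes did not overlap in either knockout, and in WT they overlapped through the ZT22 female library alone, at 14.2 FPKM, the next WT female being at 9.36 FPKM.

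DPOGS203394, on the same scaffold, had a mean difference of 0.73 ± 0.33 and was above 0 in all 16 groups. It had 10.6, 10.7, 9.07 and 10.5 FPKM in Cry2 KO males, against 4.82, 5.98, 7.05 and 7.93 FPKM in Cry2 KO females. In Clk KO it had 7.60, 10.9, 11.2 and 9.73 FPKM in males, against 5.62, 4.99, 6.57 and 7.99 FPKM in females. The highest female values were again those of ZT22, in all 3 genotypes. DPOGS203917 on DPSCF300005 (0.75 ± 0.61) was reversed in 1 group, Cry2 KO ZT22, where the male library had 34.0 FPKM and the female library 54.9 FPKM, the other 3 Cry2 KO females lying between 20.4 and 23.4 FPKM.

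Below the first 10, the means were smaller and the counts of reads generally larger. In all, 4 members had a mean of at least 1, 8 had a mean of 0.6 to 1 and 23 had a mean of 0.4 to 0.6. By sign on the centred scale, 11 genes were above 0 in 16 groups, 10 in 15 groups and 14 in 14 groups, and 38 of the 560 values were at or below 0. The smallest spread belonged to DPOGS209687 on DPSCF300134 (294439 to 305019), the member with the most reads (median of 369 per library), at 0.49 ± 0.15. It had 26.4, 28.7, 30.8 and 30.4 FPKM in Cry2 KO males, against 22.6, 19.7, 20.02 and 21.9 FPKM in Cry2 KO females. In Clk KO it had 29.5, 38.6, 47.3 and 44.9 FPKM in males, against 26.4, 35.6, 35.3 and 30.8 FPKM in females. WT males had 36.1 to 45.2 FPKM with a median of 42.7, against 24.6 to 30.7 FPKM in WT females. Every male library of WT and of Cry2 KO was above every female library of its genotype, and in Clk KO this held on the centred scale only.

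**Figure D2:**
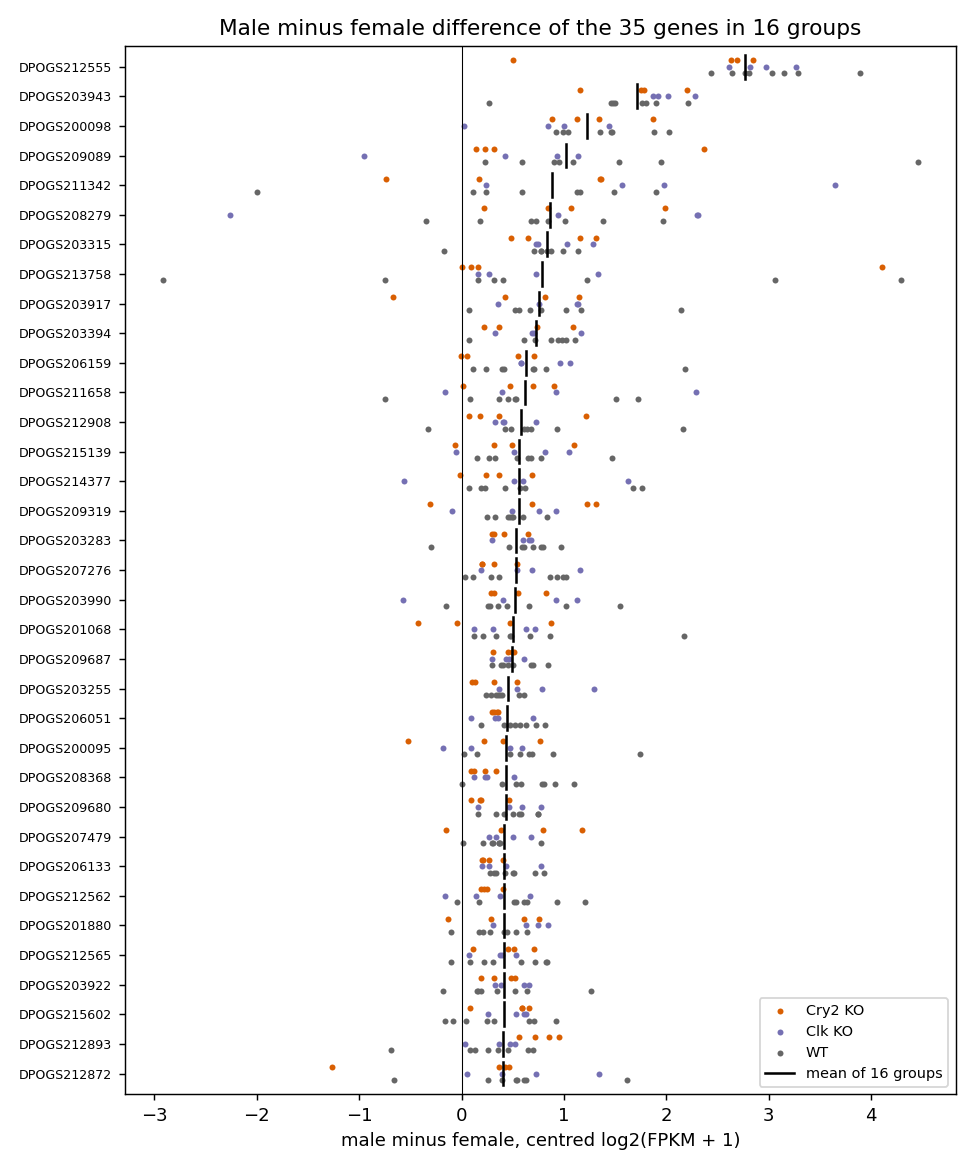
Male minus female difference in centred log2(FPKM + 1) (horizontal axis) of the 35 genes (vertical axis, ordered by mean), with 1 point for each genotype and time coloured by genotype and a black bar for the mean of the 16 groups. The first 3 genes have every point above 0, DPOGS209687 has the narrowest spread (0.29 to 0.84), and DPOGS213758 the widest (-2.92 to 4.29).

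The limits of the rule cut through a continuum. The 3 members with the smallest means were DPOGS215602 (0.412), DPOGS212893 (0.403) and DPOGS212872 (0.402). Just outside, DPOGS209675 (0.399, above 0 in all 16 groups), DPOGS200247 (0.394) and DPOGS207949 (0.392) met the sign condition. DPOGS202741 (1.4), DPOGS208028 (1.1) and DPOGS202987 (0.998) met the size condition and were above 0 in 13 groups each. The filter on FPKM acted on both sexes in most members: 31 reached 3 FPKM in a WT female library, and 4 did so in WT males only. These 4 passed it through the sex in which they are high. They were DPOGS212555, DPOGS203943, DPOGS200098 and DPOGS209319, with highest WT female values of 0, 0, 0 and 2.32 FPKM.

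The members' medians of locus length, level and reads lay below those of all genes, with wide ranges. Their locus length had a median of 1907 bases, against 3318.5 bases over the 10034 genes, and 23 of 35 were shorter than that median. The median level was 10.4 FPKM in the members (0.349 to 809) and 16.9 FPKM in all, and 20 of 35 members were below the latter. The median of reads per library was 51.9 and 109, with 28 of 35 below the latter. The SD of the difference over groups had a median of 0.419 in the members and 0.263 in all, and 4 members were below the latter value. With 10 members under 20 reads per library and 18 at 50 or more, the precision of a single difference varied widely among them.

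By genotype, the median of the members' mean differences was 0.446 in Cry2 KO (4 groups), 0.544 in Clk KO (4 groups) and 0.577 in WT (8 groups), against medians over all 10034 genes of 0.003, 0.015 and -0.004. The number of members above 0 was 34 in Cry2 KO, 35 in Clk KO and 35 in WT. Every library was used in choosing the genes, and these values are a description. The WT ZT22 group raised the WT value: without it the WT median was 0.505, and without the Cry2 KO ZT22 group the Cry2 KO median was 0.460. At the 4 times shared with the knockouts, which include ZT22, the WT median was 0.675. Over its 8 groups, WT exceeded Cry2 KO in 25 members and Clk KO in 20.

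Male and female libraries did not overlap, on the centred scale, in 13 members in Cry2 KO, 16 in Clk KO and 10 in WT, where the shares over all 10034 genes were 2.91%, 2.57% and 0.488%. Since the rule used these differences, nothing is read from the excess. The 6 members without overlap in all 3 genotypes were DPOGS212555, DPOGS203943, DPOGS209687, DPOGS206051, DPOGS209680 and DPOGS206133. The largest departures of the knockout mean above the WT mean were in DPOGS211342 (0.62 higher in the knockouts), DPOGS203943 (0.33 higher) and DPOGS212893 (0.32 higher). Those below it were in DPOGS209089 (-0.89), DPOGS212555 (-0.46) and DPOGS200095 (-0.42). The WT means took in times at which no knockout was sampled.

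By time, the median over the members was above 0 in every group. In Cry2 KO it was 0.48, 0.32, 0.41 and 0.38 at ZT4, ZT10, ZT16 and ZT22, and in Clk KO 0.53, 0.63, 0.61 and 0.48. In WT it was 0.47, 0.57, 0.53, 0.40, 0.61, 0.64, 0.53 and 0.92 from ZT1 to ZT22 in steps of 3 h. No order by time was shared by the genotypes, and the highest value was in the group with the WT ZT22 female library, where the differences of all genes had an interquartile range of 0.951, against 0.276 to 0.370 in the other groups. This group held the highest difference of 14 of the 35 members, among them DPOGS206159 (39.3 FPKM in the male, against 6.99 FPKM in the female), DPOGS201068 (39.5 against 7.07 FPKM) and DPOGS200095 (17.1 against 3.84 FPKM). Without it, 26 of the 35 kept a mean of at least 0.4 and all 35 had a mean above 0. Averaged over light and dark hours, the members' median was 0.484 and 0.396 in Cry2 KO, 0.574 and 0.507 in Clk KO, and 0.490 and 0.664 in WT. Without ZT22 the WT dark value was 0.60, in a comparison added after the data were seen.

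The pairs of members named here had the highest of 595 correlations over the groups. A search over that many pairs yields some high values by itself. The most alike were DPOGS211658 and DPOGS214377, on different scaffolds, whose differences correlated at r = 0.81 over the 16 groups, against a median of 0.04 over the 595 pairs of members. Both had their lowest knockout values in the Clk KO ZT22 female, at 7.51 and 11.5 FPKM, against 38.5 and 35.6 FPKM in the male. DPOGS201068 with DPOGS200095 (r = 0.76) and with DPOGS206159 (r = 0.74) followed, and all 3 of these genes had their largest difference at WT ZT22. Without that group, in a comparison added after the data were seen, the values were 0.50 and 0.30 for these pairs and 0.77 for DPOGS211658 with DPOGS214377. The points share libraries, so these values describe the 16 groups only.

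The 35 genes lay on 24 of the 744 scaffolds with an expressed gene, 18 of them with 1 member each. DPSCF300005 held 4 members, and DPSCF300003, DPSCF300028 and DPSCF300075 held 3 each (4 scaffolds are named because of this tie). DPSCF300044 and DPSCF300134 held 2 each. The chromosome of these scaffolds was not analysed here.

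On DPSCF300005 the members were DPOGS203943, DPOGS203922, DPOGS203917 and DPOGS203990, with DPOGS203922 and DPOGS203917 40.1 kb apart. DPOGS203990 (1301924 to 1303059) had 0.52 ± 0.51 and DPOGS203922 (629731 to 631086) 0.41 ± 0.32. Of all 63 expressed genes of the scaffold, 41 had a mean above 0 (65.1%), and the median of the 59 other genes was 0.053. Over all genes off the 2 scaffolds 51.4% were above 0.

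On DPSCF300003 the members DPOGS203394 and DPOGS203315 were 55.5 kb apart with 2 expressed genes between them, and DPOGS203283 (1683360 to 1690390, 0.53 ± 0.29) lay 737 kb further on. Of the 30 other genes between the first and the last member, 24 were above 0 with a median of 0.127, and of the 52 genes outside this span 29 were above 0 with a median of 0.011. On DPSCF300028, the 34 other genes between DPOGS206051 and DPOGS206159 had a median of 0.093 (23 above 0), against 0.018 (37 above 0) for the 65 genes outside. On both scaffolds the male excess was thus larger over the stretch that held the members, by description, and the members themselves set that stretch. The order was the same on DPSCF300005 (0.054 against -4.6e-05) and on DPSCF300044 (0.070, from 1 gene, against 0.024). It was reversed on DPSCF300075 (0.055 against 0.107) and on DPSCF300134 (-0.002 against 0.289). DPOGS206133 (0.42 ± 0.20) lay 57.2 kb from DPOGS206051 (0.45 ± 0.20), and both were above 0 in all 16 groups on the centred scale. In FPKM, DPOGS206051 was lower in the male at Clk KO ZT10.

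DPSCF300134 had the highest median of the 274 scaffolds with at least 10 expressed genes off the 2 excluded ones, 0.229 over 18 genes, of which 13 were above 0. Besides its members DPOGS209687 and DPOGS209680 (0.44 ± 0.23), another 3 of its genes were above 0 in all 16 groups, DPOGS209675 (0.40), DPOGS209666 (0.36) and DPOGS209674 (0.23). The 8 genes between the members had a median of -0.002 and the 8 outside a median of 0.289. DPSCF300075 was second, at 0.111 over 17 genes with 13 above 0. Its members DPOGS212565 (0.41 ± 0.28) and DPOGS212562 (0.42 ± 0.35) were 17.3 kb apart, and DPOGS212555 lay 360 kb from them. The excluded scaffolds had medians of 0.077 (DPSCF300001, 314 genes, 68.2% above 0) and 0.131 (DPSCF300012, 64 genes, 75.0% above 0), and 13 and 5 of their genes passed the conditions of the rule.

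**Figure D3:**
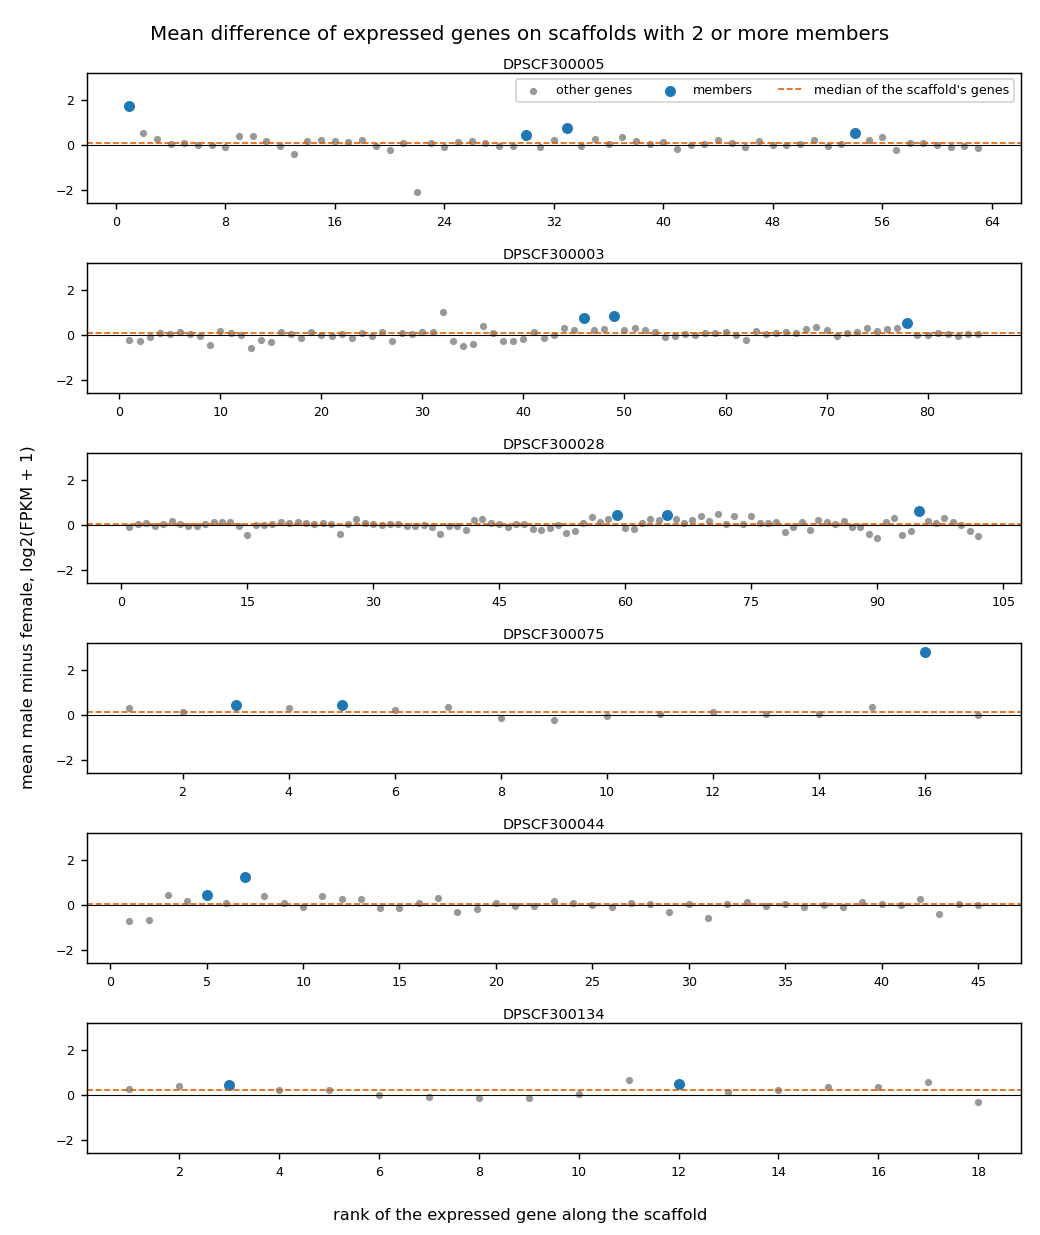
Mean male minus female difference in centred log2(FPKM + 1) (vertical axes) of the expressed genes in order along the 6 scaffolds with 2 or more members (horizontal axes, rank of the gene), with members in blue, other genes in grey and the scaffold's median as a dashed line. The median is highest on DPSCF300134, at 0.229, and the other 5 scaffolds have medians of 0.032 to 0.111.

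The scaffolds with a single member had medians on both sides of 0. Among the 17 of these 18 scaffolds that held at least 10 expressed genes, the median ran from -0.066 on DPSCF300234 to 0.069 on DPSCF300146. Some reached the level of scaffolds with several members. DPSCF300325 had 0.045 and DPSCF300008 had 0.035, against 0.032 on DPSCF300044 and 0.035 on DPSCF300028. On DPSCF300146, whose member DPOGS208368 was the most abundant of the 35 (694 to 1256 FPKM in males, against 520 to 965 FPKM in females), 11 of 13 genes were above 0. The remaining scaffold, DPSCF300909, had DPOGS212893 as its only expressed gene.

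Whether the level of these genes, over both sexes, depended on clock genotype is a question the rule did not use. Cry2 KO libraries (n = 8) were compared with WT libraries of the same times (n = 8) with limma, p-values being adjusted by Benjamini-Hochberg over all 10412 genes. None of the 35 members passed an adjusted p of 0.05, against 5.07% of all genes tested (2.08% higher and 2.99% lower), and 4 members had an unadjusted p under 0.05, against 21.3% of all genes. The rule chose these genes for a sex difference, and the fit without a block leaves that difference in their residual spread. Their lower share in that fit is therefore not read as a result. With replicate number, which is sex, as a block, 8 members had an unadjusted p under 0.05, against 22.3% of all genes. The number of genes called over all genes, 528, was 322 without the Cry2 KO ZT22 male library, 349 without the Cry2 KO ZT22 female, 333 without the WT ZT10 female, 351 without the WT ZT4 female and 956 (9.18%) without the WT ZT22 female. The members' log2 differences ran from -0.81 to 0.88 with a median of 0.04. DPOGS201068 averaged 47.0 ± 11.3 FPKM in Cry2 KO and 28.9 ± 11.7 FPKM in WT (SD, n = 8 each), a log2 difference of 0.88 ± 0.27 (SE, adjusted p = 0.0820 with limma), and was higher in 8 of 8 matched pairs. It was thus not called with all libraries. It passed when the WT ZT22 male library was left out (1.01, limma adjusted p = 0.0448) or the WT ZT22 female library (0.62, limma adjusted p = 0.0235).

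DPOGS209687, the member with the most reads, averaged 25.1 ± 4.6 FPKM in Cry2 KO and 34.2 ± 7.5 FPKM in WT, and was lower in all 8 matched pairs. Its log2 difference of -0.35 ± 0.13 did not pass (limma adjusted p = 0.144), but with replicate number, and thus sex, as a block the standard error fell to 0.05 and the adjusted p to 0.0020. DPOGS215139 averaged 9.61 ± 2.48 FPKM in Cry2 KO and 6.76 ± 1.76 FPKM in WT. Its log2 difference of 0.53 ± 0.17 had an adjusted p of 0.0899 with limma, of 0.0194 with the block, and of 0.0427 without the Cry2 KO ZT10 female library. With the block 2 of 35 members were called, 1 higher and 1 lower, where 5.89% of all genes were.

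Clk KO libraries (n = 8) were compared in the same way with the same 8 WT libraries. No member passed an adjusted p of 0.05 with limma, against 2.97% of all genes tested (1.24% higher and 1.73% lower), and 4 had an unadjusted p under 0.05, against 18.9% of all genes. Here too the fit without a block leaves the members' sex difference in their residual spread, and their lower share is not read as a result. With the replicate block 8 members had an unadjusted p under 0.05, against 20.2% of all genes. The 309 genes called over all genes became 507 (4.87%) without the WT ZT22 female library, and 155 to 186 without the male or the female library of Clk KO ZT16, Clk KO ZT22, WT ZT10 or WT ZT16, or the female library of Clk KO ZT10 or WT ZT4. The members' median log2 difference was 0.00, with a range of -0.54 to 0.77. DPOGS203922 had the lowest p: it averaged 51.9 ± 8.2 FPKM in Clk KO and 35.1 ± 10.3 FPKM in WT and was higher in 8 of 8 matched pairs, with a log2 difference of 0.65 ± 0.19 (adjusted p = 0.0775 with limma, 0.0176 with the block, 0.0441 without the WT ZT22 male library). In Cry2 KO the same gene averaged 45.8 ± 8.5 FPKM, with a log2 difference of 0.50 ± 0.18 (limma adjusted p = 0.137), which was 0.33 ± 0.12 without the WT ZT22 female library (adjusted p = 0.0967). DPOGS200095 averaged 26.8 ± 3.8 FPKM in Clk KO and 17.6 ± 7.4 FPKM in WT (0.77 ± 0.24, limma adjusted p = 0.108), and DPOGS212893 averaged 26.3 ± 6.5 FPKM in Clk KO and 36.0 ± 8.3 FPKM in WT (-0.40 ± 0.17, limma adjusted p = 0.224). With the block, 1 of 35 members was called, where 3.53% of all genes were.

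A 24-h rhythm in WT was also not part of the rule. Over the 16 WT libraries, 0 of the 35 members passed the limma test of a 24-h cosine and sine with a maximum/minimum of at least 1.3, against 0.788% of all genes (82 of 10412), and 0 had an unadjusted p under 0.05, against 8.03% of all genes. Without the WT ZT22 female library 176 genes were called (1.69%), and still 0 members. The lowest adjusted p with limma, 0.660, was that of DPOGS211342. As in the level fits, the fit without a block leaves the members' sex difference in their residual spread. With the replicate block 0 members were called, against 0.98% of all genes, and 1 had an unadjusted p under 0.05, against 9.14% of all genes.

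To see whether a male excess chosen in WT recurs in libraries that did not choose it, the same conditions were applied to the 8 WT groups alone, with at least 7 groups above 0 and a WT mean of at least 0.4. This chose 115 genes off the 2 scaffolds, 28 of the 35 members and 87 others, and the 16 knockout libraries were then tested with limma for male against female with genotype and time as a factor. Of the 115 genes, 8 were called higher in males (6.96%), where 0.615% of all 10412 genes were, and 0 were called higher in females. Leaving out any of the 16 knockout libraries, with the list of 115 kept, gave 5 to 6 of them. In these runs 0.202% to 0.327% of all genes were called higher in males. The list was not chosen again without a WT library, so the part of the WT ZT22 female library in it was not tested. The knockout difference was above 0 in 89 of the 115 genes (77.4%), against 54.7% of all genes, and its median was 0.15, against 0.54 for the WT differences that chose them. Of the 87 genes that are not members, 61 were above 0 in the knockouts. All 8 called genes are members, but membership itself uses the knockout differences.

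The 8 genes were above 0 in all 8 knockout groups on the centred scale. In FPKM, DPOGS206051 was lower in the male at Clk KO ZT10 (7.18 against 7.66 FPKM). DPOGS212565 was lower in the male at Clk KO ZT22 (248.9 against 250.0 FPKM). DPOGS203943 had 2.81 ± 0.51 FPKM in knockout males and 0.113 ± 0.319 FPKM in knockout females (SD, n = 8 each; limma adjusted p = 0.0010), and DPOGS212555 had 5.77 ± 1.07 and 0.436 ± 1.23 FPKM (adjusted p = 0.0062). In both, the female mean came from the library labelled Cry2 KO ZT22 female alone. DPOGS209687 had 34.6 ± 7.9 FPKM in knockout males and 26.5 ± 6.6 FPKM in knockout females, a log2 difference of 0.45 ± 0.04 (SE, limma adjusted p = 0.0033), close to the 0.53 ± 0.19 (SD, n = 8 groups) of WT. DPOGS203315 had 13.2 ± 2.5 FPKM in knockout males and 6.85 ± 1.53 FPKM in knockout females (0.92 ± 0.10, limma adjusted p = 0.0063).

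DPOGS203283 had 86.3 ± 9.3 FPKM in knockout males and 64.4 ± 7.3 FPKM in knockout females, a log2 difference of 0.49 ± 0.06 (limma adjusted p = 0.0078). These 5 genes kept the call whichever of the 16 libraries was left out. Among them, DPOGS203943 and DPOGS212555 had passed the filter on FPKM through WT males only. The other 3, DPOGS203394 (0.66 ± 0.11, adjusted p = 0.0337), DPOGS212565 (0.39 ± 0.07, adjusted p = 0.0418) and DPOGS206051 (0.35 ± 0.06, adjusted p = 0.0437 with limma), each lost it in 14 of the 16 runs that left out a library. Without the library labelled Cry2 KO ZT22 female 6 genes were called. DPOGS200098 (adjusted p = 0.0538) and DPOGS206133 (adjusted p = 0.0521 with limma) came just short, both above 0 in all 8 groups.

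**Figure D4:**
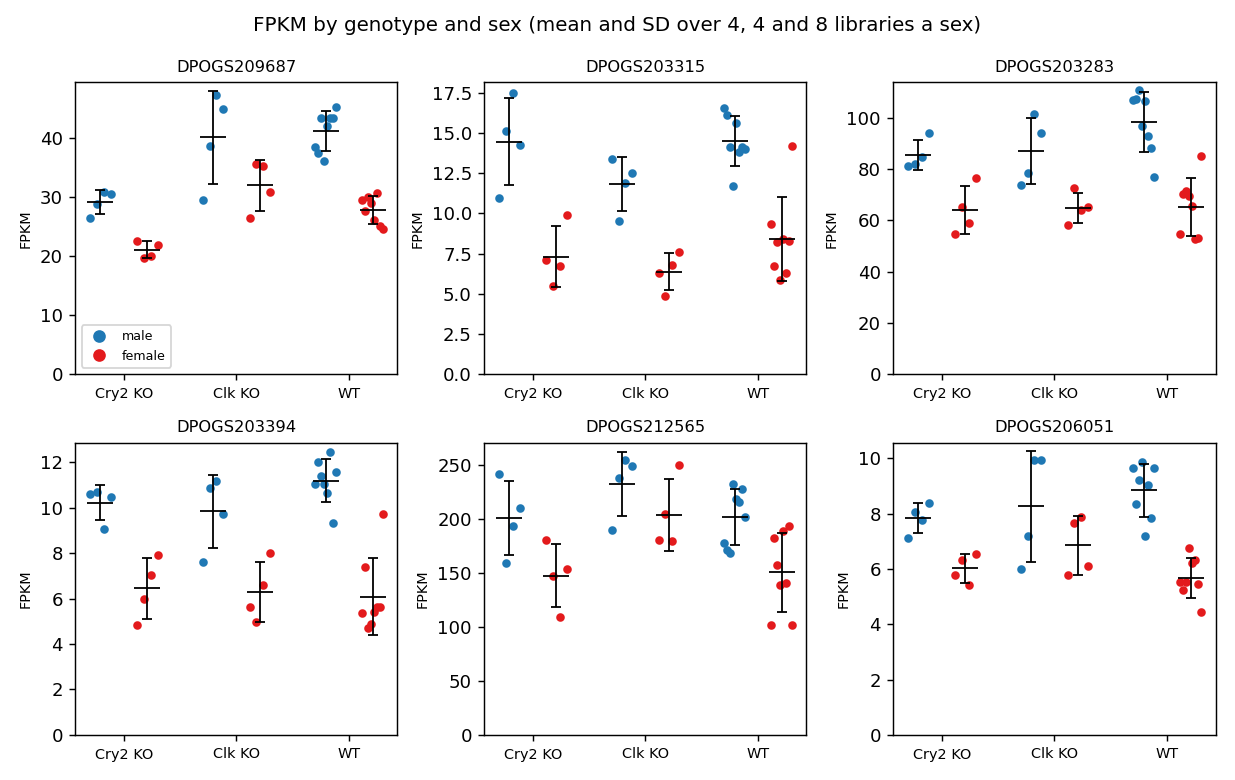
FPKM (vertical axes, from 0) of the 6 genes that were called in the knockout libraries and never listed at 0, by genotype, with male libraries in blue left of female libraries in red and the mean and SD over 4 (Cry2 KO), 4 (Clk KO) and 8 (WT) libraries of a sex. In DPOGS203315 the WT female point at 14.2 FPKM, level with the WT males, is the ZT22 library.

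**Figure D5:**
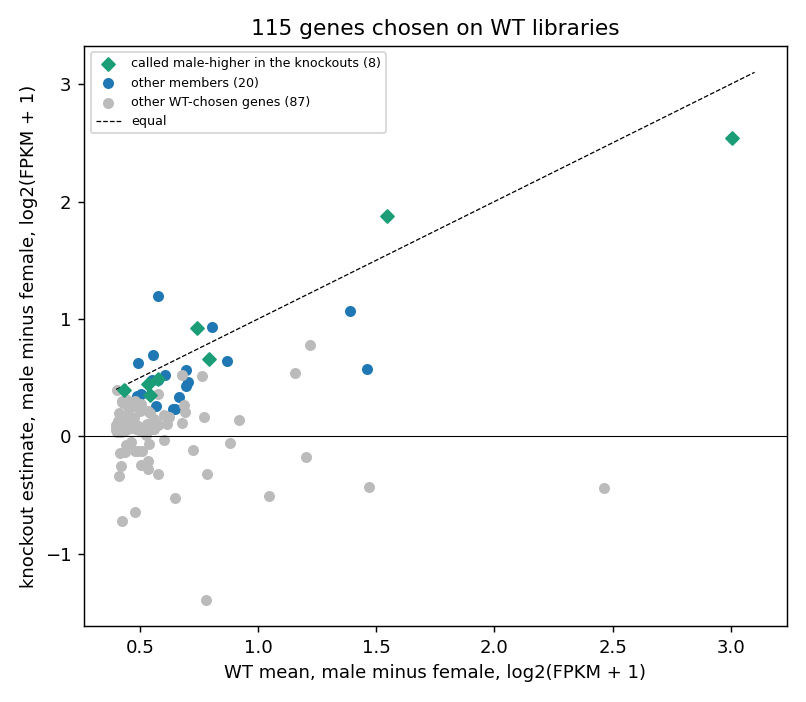
Mean WT difference (horizontal axis) against the estimated knockout difference (vertical axis), both male minus female in centred log2(FPKM + 1), of the 115 genes chosen on WT libraries, with the 8 called genes as diamonds, the 20 other members in blue and the 87 other genes in grey. The called genes run from 0.35 to 2.54 in the knockouts, and 26 of the genes that are not members lie below 0.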

How the data were processed

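RNA-seq libraries (32) of monarch brains were analysed. According to the methods and the labels, the authors sequenced 50-bp single-end reads, called bases with CASAVA 1.8.2, mapped them with TopHat2 to assembly v3, and deposited FPKM per gene and library from Cufflinks with a 95% interval and no filter on low values. The files hold no counts. Read numbers were derived from the interval's width, and 82.5% of values under 30 reads came out within 0.05 of a whole number. Intervals cover counting error only, and a value listed at 0 may be a failed estimate.

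FPKM were analysed as log2(FPKM + 1), pseudocount 1, each library centred on its median over the 10034 genes. Tests used limma 3.58.1 in R 4.3.3 with an intensity trend over 10412 genes and Benjamini-Hochberg adjustment, and were tested on simulated data. Level fits had time as a factor and no replicate block. Other scalings, a pseudocount of 0.1, other limits, left-out libraries and the block were tried. Groups came from the labels. The pools of a genotype and time are separate pools, and p-values measure only the spread between such pools.

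The members and the lists were chosen with earlier results of these data known. Named genes were the 10 largest means, the 3 members and 3 plus 3 other genes nearest the limits, members called in a test, those on scaffolds with several members, and the 3 knockout means furthest above and below WT. No member was called in the knockout or rhythm tests without the block, and members named there, DPOGS211658, DPOGS214377, DPOGS208368, DPOGS206159 and the other genes of DPSCF300134 were chosen after their values were seen.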

Additional observations from a re-analysis of the deposited data

Results flagged for a closer look

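The FPKM of the 10 members with the largest means were looked at within each genotype and sex (60 sets of 4 or 8 libraries). In these, 9 values, from 6 libraries, stood far from the rest of their set. The rule used, Dixon's, weighs the gap to the nearest value against the range of the set. Its rate of about 1 in 20 sets holds for normally distributed values. These FPKM are bounded at 0, and a set with all libraries but 1 at 0 is always flagged. Sets with every library at 0 were counted but could not be flagged. The 9 are therefore not set against a rate. In Cry2 KO females, the library labelled ZT22 was the highest in 4 genes: DPOGS212555 (3.49 FPKM, the other 3 listed at 0), DPOGS203943 (0.901 FPKM, the other 3 listed at 0), DPOGS200098 (0.712 FPKM, the other 3 listed at 0) and DPOGS203917 (54.9 FPKM, the next at 23.4 FPKM). In Cry2 KO males, DPOGS211342 was highest at ZT4 (670 FPKM, the next at 122 FPKM), and DPOGS203394 was lowest at ZT16 (9.07 FPKM, the next at 10.5 FPKM). In WT males, DPOGS212555 was highest at ZT4 (14 FPKM, the next at 8.61 FPKM). In WT females, DPOGS211342 was highest at ZT10 (211 FPKM, the next at 96.9 FPKM) and DPOGS203315 at ZT22 (14.2 FPKM, the next at 9.36 FPKM). These sets span times of day, and the part of time or of the library in each value was not tested.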

How the results depend on the processing

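Without centring, on the deposited scale, 23 genes met the rule, all of them members; being above 0 in all 16 groups left 11, and a mean of at least 0.3 gave 71. Quantile normalization, a pseudocount of 0.1 and an FPKM of at least 1 gave 37, 47 and 41 genes, with 33, 35 and 35 of the members, and leaving out a library with its group gave 35 to 45, with 26 members retained without WT ZT22 and 31 to 34 otherwise. No member's mean changed sign. The pseudocount of 0.1 raised DPOGS212555, DPOGS203943 and DPOGS200098 to 5.72, 4.36 and 3.55. With the replicate block, 1 member was higher and 1 lower in Cry2 KO, and 1 was higher in Clk KO. Leaving out a library gave 0 to 1 members higher and 0 lower in each knockout, and 0 rhythmic members. The block changed no other call of a member. Differences of the groups correlated at a mean of 0.03 over 120 pairs of groups (13 above 0.1), and the main level and rhythm fits had no replicate block. Replicate number is sex, and the rule chose the members for a difference shared by the groups. This mean therefore cannot show that the block is idle for them. For DPOGS209687 the block lowered the standard error of the Cry2 KO difference from 0.13 to 0.05. Of the genes chosen in WT, 4 were called in the knockouts on the deposited scale (DPOGS203943, DPOGS212555, DPOGS203315 and DPOGS203283). Without a knockout library 5 to 6 were called, each such run also emptying the pair of the library it left out. Over all genes, the deposited scale called 990 in Cry2 KO (11% higher) against 528 (41.1%), 360 in Clk KO (14.4%) against 309 (41.7%), and 37 between the sexes in the knockouts (29.7%) against 95 (67.4%), which was 35 to 56 without a library. Medians of 5, 3 and 0.50 reads per library limit DPOGS212555, DPOGS203943 and DPOGS200098.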
